A study of Mus musculus with 12 samples.

Results

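The transforming growth factor beta (TGF-beta) family was examined here through 9 genes in cultured heart muscle cells, namely the ligands Tgfb1, Tgfb2, Tgfb3, Inhba and Gdf15, the receptors Tgfbr1 and Tgfbr2, and the inhibitory SMADs Smad6 and Smad7. The genes were taken by name from the 22915 genes of the deposited table, and all 9 had a row in it. RNA came from primary cardiomyocytes of adult (12 weeks) male C57/Bl6 mice, kept for 24 h in normoxia with PBS, mLIF, mOSM or hlOSM. Each condition had 3 libraries, 12 in all. PBS, the solvent of the recombinant proteins, was the control and was shared by every comparison against it. Murine leukemia inhibitory factor (mLIF) acts through the LIF receptor (LIFR), and murine oncostatin M (mOSM) acts through the oncostatin M receptor (OSMR). The chimeric hlOSM is murine oncostatin M with the AB loop of the human protein, made to act on both receptors as oncostatin M does in humans. The sample descriptions give 25 ng/mL for each cytokine, whereas the study's text gives a somewhat lower concentration. The study's methods speak in general terms of biological replicates, but neither source states whether the 3 libraries of a condition came from separate animals or preparations. The p-values below thus measure the spread between these libraries only. They may also be too small, since the values hold almost no difference between replicate numbers, as described with the processing.

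TGF-beta family ligands are secreted dimers that bring together type II and type I receptor kinases on the cell surface. The type I receptor phosphorylates receptor-regulated SMAD proteins, which join SMAD4 and act on gene transcription in the nucleus. TGF-beta itself is secreted in a latent complex and has to be released before it can bind. SMAD6 and SMAD7 are inhibitory SMADs that are induced by the pathway and damp it. SMAD7 acts at receptors of TGF-beta, activin and bone morphogenetic proteins (BMPs), and SMAD6 mainly at those of BMPs. In the heart the family is best known for fibrosis, in which TGF-beta drives the conversion of fibroblasts to myofibroblasts, and for GDF15, a circulating marker of stressed tissue.

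Values are the authors' normalized counts, rounded to whole numbers and not divided by gene length, and their normalization is not named. A library summed to between 2745748 and 2911891 normalized counts. These sums are no numbers of reads. The study's methods state the reads only as an average over libraries, so that the depth behind a single value is not known. All 8 cardiomyocyte markers examined were present, led by Ttn, the gene of the giant sarcomere protein titin, and their summed normalized count was 47572 to 49402 in the PBS libraries. Markers of other cell types were present in the PBS libraries too, with sums of 2296 to 2526 over 8 fibroblast genes, 950 to 1188 over 6 smooth muscle and pericyte genes, 1042 to 1098 over 6 endothelial genes and 295 to 312 over 6 macrophage and leukocyte genes. Of these genes Fcgr1 was at or near 0, with 0 to 8 in a library. Which cells in the culture carried the transcripts of the 9 genes was not measured.

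Conditions were compared by limma on the scale of log2(normalized count + 1), over the 13184 genes that reached 10 in at least 3 libraries. A gene was called where its adjusted p (Benjamini-Hochberg, two-sided) was under 0.05. All 9 genes passed this filter, and each of them reached at least 50 in all 12 libraries, so that none entered through a single condition. The median log2 fold change of all tested genes lay within 0.01 of 0 for each pair of conditions.

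The RefSeq promoter table (GRCm38.p6, 250 bases before to 50 after the start) held 7 of the 9 genes, with 9 windows in all, and no entry for Tgfb3 and Smad7. The windows of Tgfb2 and Inhba are shown because these were the genes with an entry that were called against PBS, in opposite directions. They lie at chr1:186705940-186706239 on the minus strand and at chr13:16011601-16011900 on the plus strand. Capitals mark matches to the letters CAGAC, the core of the SMAD box.
Tgfb2: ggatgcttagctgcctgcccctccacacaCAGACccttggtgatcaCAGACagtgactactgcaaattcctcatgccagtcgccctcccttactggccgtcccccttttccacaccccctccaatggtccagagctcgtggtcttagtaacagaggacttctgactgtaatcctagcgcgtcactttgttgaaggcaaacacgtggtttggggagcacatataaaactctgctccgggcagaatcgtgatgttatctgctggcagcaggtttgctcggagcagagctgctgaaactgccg
Inhba: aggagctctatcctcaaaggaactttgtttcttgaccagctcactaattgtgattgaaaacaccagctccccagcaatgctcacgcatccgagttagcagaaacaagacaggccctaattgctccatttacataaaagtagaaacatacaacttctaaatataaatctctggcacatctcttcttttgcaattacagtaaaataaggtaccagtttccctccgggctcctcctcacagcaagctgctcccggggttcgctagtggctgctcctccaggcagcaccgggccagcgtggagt

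Both strands of each window were searched for the STAT site TTCNNNGAA, the SMAD box core CAGAC, the BMP-type SMAD site GGCGCC, the AP-1 site TGANTCA and the ATF4 composite core TGATGNAA. Among all 32851 promoters of the table, 8.30% held the STAT letters, 49.6% CAGAC, 11.9% GGCGCC, 7.81% the AP-1 letters and 3.97% the ATF4 letters. The Tgfb2 window held CAGAC at 2 places, and the Inhba window held none of the 5 motifs. CAGAC was also found in windows of Tgfbr1, Tgfbr2 and Gdf15, and GGCGCC in a window of Tgfbr1, whereas no window of the 7 genes held the STAT, AP-1 or ATF4 letters. The windows shown also differed in base composition, with 54.3% G and C for Tgfb2 and 47.7% for Inhba, against a median of 52.7% over all promoters and 77.0% for Tgfb1. A match or its absence in these 300 bases is a description of the letters only.

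In PBS the 9 genes spanned a 14.6-fold range when the normalized count was divided by the length of their exons. Gdf15, a stress-induced ligand that signals to the brainstem, stood highest at 316 ± 28.6 (SD, n = 3) normalized counts per kb of exons, above 99.4% of the tested genes. Tgfb2 followed at 95.2 ± 3.39, Smad7 at 90.5 ± 5.65 and Inhba at 78.7 ± 3.53. Tgfbr1 stood at 51.4 ± 4.31, Tgfb3 at 33.4 ± 2.42, Tgfbr2 at 33.4 ± 2.44, Smad6 at 29.5 ± 6.80 and Tgfb1 at 21.6 ± 1.21, which was above 47.5% of the tested genes (each SD, n = 3). Of the 8 neighbouring pairs in this order, 3 had overlapping PBS libraries, namely Tgfb2 with Smad7, Tgfb3 with Tgfbr2, and Tgfbr2 with Smad6. Per kb of exons, Tgfb2 was thus the highest of the TGF-beta isoforms in PBS, and Tgfb1 the lowest. This order depended on the length used. Per kb of gene span, Tgfb2 was at 6.63, Tgfb1 at 6.03 and Tgfb3 at 5.07 in PBS. With mOSM and hlOSM the order per kb of exons changed. Inhba moved from rank 4 to rank 2, with 119 ± 6.30 and 114 ± 1.03 normalized counts per kb, and Tgfb3 moved from rank 6 to rank 9, below Tgfb1, with 18.1 ± 2.96 and 17.6 ± 1.81 (each SD, n = 3). In both conditions the libraries of Inhba did not overlap those of Smad7, the next in order, nor did those of Tgfb1 overlap those of Tgfb3.

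**Figure D1:**
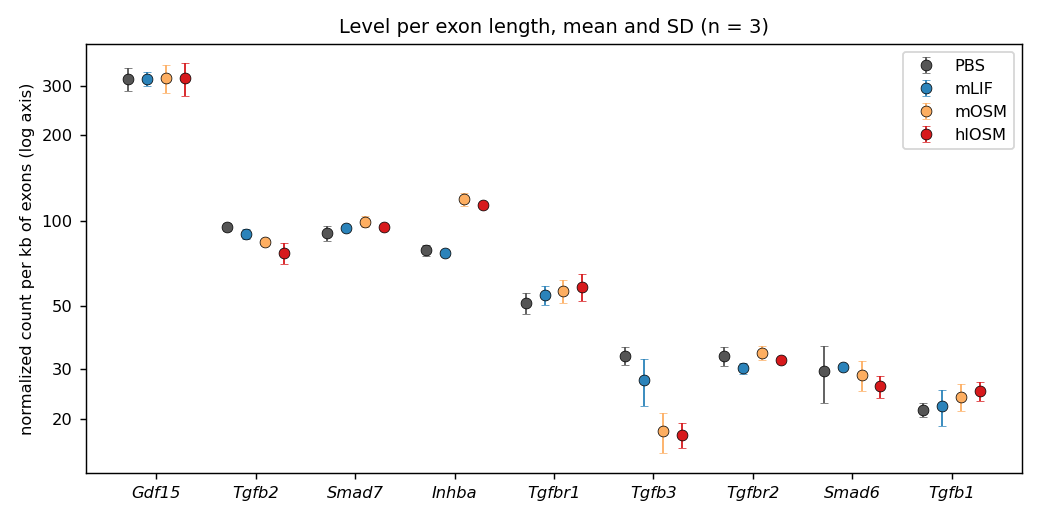
Normalized count per kb of exons (log axis) for the 9 genes, ordered by their PBS level, with the mean and SD of 3 libraries in each of the 4 conditions. Gdf15 lies near 316 in all conditions, while Inhba rises above Smad7 and Tgfb3 drops below Tgfb1 with mOSM and hlOSM.

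Against PBS, Inhba rose and Tgfb3 fell with both forms of oncostatin M, and Tgfb2 fell by a smaller amount. With mOSM, 1 of the 9 genes was called higher and 2 lower, against 15.4% and 15.8% of all tested genes. With hlOSM the numbers were again 1 higher and 2 lower, against 18.2% and 19.8% of all tested genes, so that the share of called members was close to that of the whole table. With mLIF, limma called 0 of the 9, with 1 (Tgfb3) at an unadjusted p under 0.05, where 5.47% of all tested genes were called higher and 4.44% lower. With replicate numbers added as a blocking term, fewer genes were called over the whole table, namely 5.95% in place of 9.91% with mLIF, 25.3% in place of 31.2% with mOSM and 31.2% in place of 37.9% with hlOSM, and 0, 2 and 3 of the 9 genes. The median over the 9 genes, on the log2 scale, was 0.01 in mLIF, 0.04 in mOSM and 0.00 in hlOSM.

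**Figure D2:**
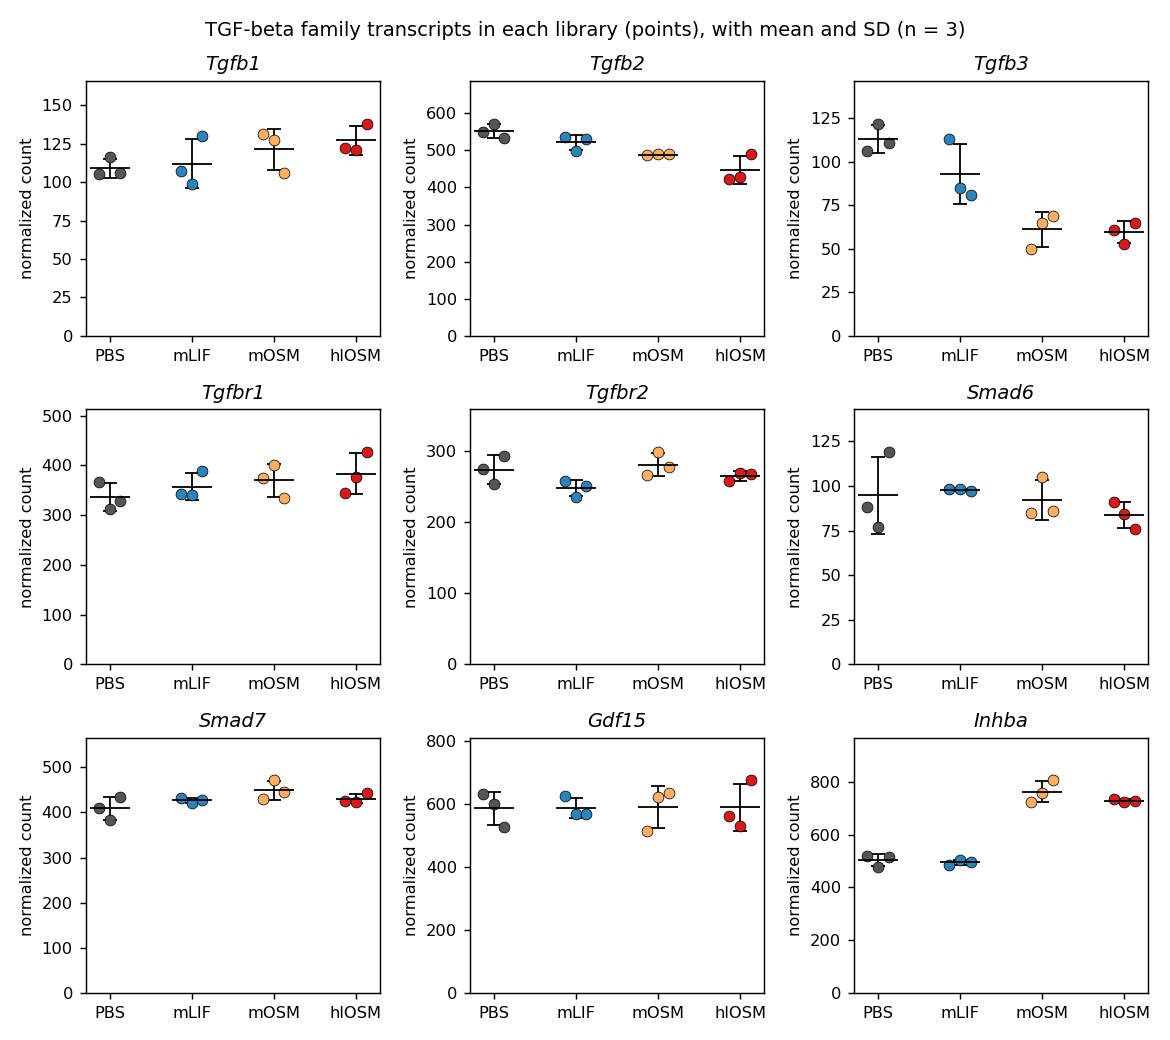
Normalized count of each of the 9 genes in each library (points) by condition, with the mean (long line) and SD (error bar) of 3 libraries. For Inhba the 6 mOSM and hlOSM libraries lie between 722 and 805, all above the PBS and mLIF libraries, and for Tgfb3 they lie between 50 and 69, all below them.

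Inhba encodes the inhibin beta A chain, whose homodimer is activin A, a ligand that signals through SMAD2 and SMAD3. It lies at chr13:16011851-16031621 on the plus strand (mm10, ENSMUSG00000041324). The PBS libraries held 517, 477 and 515 normalized counts and the mLIF libraries 483, 504 and 496. With mOSM the values were 725, 757 and 805, and with hlOSM 735, 722 and 727. The libraries of PBS and mLIF overlapped each other, and every library of both oncostatin M conditions lay above all of them. The rise was 1.51-fold with mOSM (95% interval 1.40 to 1.64, log2 fold change 0.60 ± 0.05 SE, adjusted p = 2.23e-08) and 1.45-fold with hlOSM (1.34 to 1.57, log2 0.53 ± 0.05 SE, adjusted p = 8.58e-08). With mLIF the log2 fold change was -0.02 with a 95% interval from -0.14 to 0.09 (adjusted p = 0.825).

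Tgfb3 encodes the TGF-beta 3 ligand, which is known for its role in palate development. It lies at chr12:86056745-86079041 on the minus strand (ENSMUSG00000021253). Its normalized counts were 106, 122 and 111 in PBS, 113, 85 and 81 in mLIF, 50, 65 and 69 in mOSM, and 61, 53 and 65 in hlOSM. The first mLIF library lay within the PBS range and the other 2 lay below it, whereas all libraries with mOSM or hlOSM were lower than every PBS and mLIF library. Tgfb3 fell by 45.7% with mOSM (log2 fold change -0.88 ± 0.14 SE, adjusted p = 2.69e-05) and fell by 46.9% with hlOSM (-0.91 ± 0.14 SE, adjusted p = 1.32e-05). With mLIF its log2 fold change was -0.29 with a 95% interval from -0.57 to -0.01 (unadjusted p = 0.0423, adjusted p = 0.176). In the reference annotation, 4.82% and 7.60% of its exon bases overlap the predicted genes Gm37804 and Gm48008 on the other strand, and whether the counting used strand is not stated in the sources used here.

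Tgfb2 encodes the TGF-beta 2 ligand, whose loss in mice disturbs heart development. It lies at chr1:186622792-186705989 on the minus strand (ENSMUSG00000039239). The PBS libraries held 549, 572 and 533 normalized counts, the mLIF libraries 537, 499 and 530, the mOSM libraries 486, 489 and 489, and the hlOSM libraries 422, 427 and 490. The mOSM and hlOSM libraries were all below the PBS libraries, and the third hlOSM library was level with the mOSM libraries. Tgfb2 fell by 19.2% with hlOSM (log2 fold change -0.31 ± 0.06 SE, adjusted p = 0.000388). With mOSM it fell by 11.4% (-0.18 ± 0.06 SE, adjusted p = 0.0322), but this call was lost with the replicate number as a block (adjusted p = 0.0599), without the filter on low values (0.0516), and when PBS library 1 (0.0675) or 2 (0.123) or mOSM library 1 (0.0742) or 2 (0.0669) was left out. With mLIF the log2 fold change was -0.08 (95% interval -0.21 to 0.05, adjusted p = 0.442). Of its exon bases 2.14% overlap the gene Gm29491 on the other strand, which had at most 2 normalized counts in a library.

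**Figure D3:**
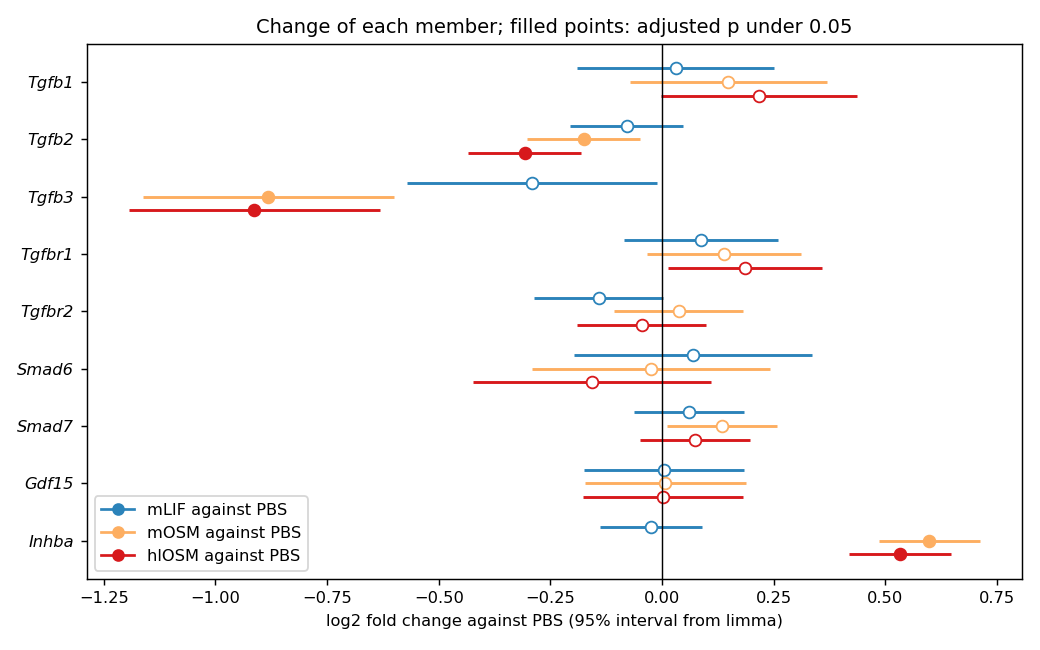
Log2 fold change against PBS of the 9 genes with its 95% interval from limma, for mLIF, mOSM and hlOSM, where filled points passed the adjusted p of 0.05. Inhba lies at 0.60 and 0.53 and Tgfb3 at -0.88 and -0.91 with mOSM and hlOSM, while the 3 points of Gdf15 lie at 0.

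Tgfb1, the isoform best known in fibrosis, was not called in any comparison. It lies at chr7:25687002-25705077 on the plus strand (ENSMUSG00000002603). Its normalized counts were 105, 116 and 106 in PBS, 107, 99 and 130 in mLIF, 131, 127 and 106 in mOSM, and 122, 121 and 138 in hlOSM. The hlOSM libraries did not overlap the PBS libraries, yet the log2 fold change of 0.22 ± 0.11 SE did not pass the threshold (95% interval -0.00 to 0.44, adjusted p = 0.112). With mOSM it was 0.15 (adjusted p = 0.311) and with mLIF 0.03 (adjusted p = 0.887). Of the 3 isoforms, Tgfb2 and Tgfb3 were thus called lower with both oncostatin M forms, and Tgfb1 was not called. The call of Tgfb2 with mOSM was the weakest of these and was lost in the alternatives given above.

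Gdf15 stayed at nearly the same mean in all 4 conditions, between 586 and 590 normalized counts. It lies at chr8:70629393-70632456 on the minus strand (ENSMUSG00000038508). Its normalized counts were 630, 600 and 527 in PBS, 624, 568 and 568 in mLIF, 514, 622 and 633 in mOSM, and 562, 529 and 674 in hlOSM. The ranges of all conditions overlapped. The log2 fold change was 0.01 in mLIF (adjusted p = 0.98), 0.01 in mOSM (0.958) and 0.00 in hlOSM (0.983). The outer bounds of the 95% intervals were -11.5% and 13.9%, so that changes within these bounds could not be seen.

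TGF-beta receptor type I (Tgfbr1) and type II (Tgfbr2) are the kinases that bind the TGF-beta isoforms as a complex. Tgfbr1 (chr4:47353222-47414931, plus strand, ENSMUSG00000007613) had 367, 312 and 329 normalized counts in PBS, 343, 340 and 388 in mLIF, 374, 401 and 335 in mOSM, and 345, 377 and 427 in hlOSM. Its ranges overlapped in all conditions, and with hlOSM the log2 fold change of 0.19 ± 0.08 SE missed the threshold (adjusted p = 0.0823). It passed when PBS library 1 (0.25, adjusted p = 0.0337) or hlOSM library 1 (0.26, adjusted p = 0.028) was left out. Tgfbr2 (chr9:116084293-116175360, minus strand, ENSMUSG00000032440) had 274, 253 and 293 in PBS, 257, 235 and 250 in mLIF, 266, 298 and 277 in mOSM, and 257, 269 and 267 in hlOSM. No change of Tgfbr2 passed the threshold, and its log2 fold change was -0.14 in mLIF (adjusted p = 0.203), 0.04 in mOSM (0.725) and -0.05 in hlOSM (0.638). The 95% intervals of its 3 changes lay between -0.29 and 0.18.

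The inhibitory SMADs were not called in any comparison. Smad7 (ENSMUSG00000025880) had 411, 383 and 434 normalized counts in PBS, 433, 420 and 427 in mLIF, 431, 471 and 445 in mOSM, and 425, 424 and 443 in hlOSM. Its log2 fold change was largest with mOSM, at 0.13 ± 0.06 SE (adjusted p = 0.091), and passed the threshold after trimmed-mean rescaling (adjusted p = 0.0412) or without PBS library 3 (0.18, adjusted p = 0.0474). With mLIF and hlOSM it was 0.06 and 0.07 (adjusted p = 0.548 and 0.341). Smad6 (chr9:63953076-64022059, minus strand, ENSMUSG00000036867) had 88, 77 and 119 in PBS, 98, 98 and 97 in mLIF, 85, 105 and 86 in mOSM, and 91, 84 and 76 in hlOSM. The PBS range covered all libraries of the cytokines except the third hlOSM library. The log2 fold changes were 0.07, -0.02 and -0.16 in mLIF, mOSM and hlOSM (adjusted p = 0.785, 0.912 and 0.36).

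Libraries of a cytokine that do not overlap those of PBS were counted as a description beside the test. With mLIF all 9 genes overlapped, where 30.3% of all tested genes did not. With mOSM, 1 gene lay wholly above PBS and 2 wholly below it, where 40.1% of the tested genes did not overlap in either direction. With hlOSM, Inhba and Tgfb1 lay wholly above PBS and Tgfb2 and Tgfb3 wholly below it, where the share over all tested genes was 47.0%.

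Whether the oncostatin M forms differed from mLIF, and from each other, was tested in the same fit. Against mLIF, mOSM raised Inhba (log2 difference 0.62 ± 0.05 SE, adjusted p = 3.39e-08) and lowered Tgfb3 (-0.59 ± 0.14 SE, adjusted p = 0.00462), the latter not being called without mLIF library 1 (-0.44, adjusted p = 0.052). Of all tested genes, 6.05% were called higher and 5.76% lower in this comparison. Against mLIF, hlOSM likewise raised Inhba (0.56 ± 0.05 SE, adjusted p = 1.41e-07) and lowered Tgfb3 (-0.62 ± 0.14 SE, adjusted p = 0.00238). Tgfb2 was also lower with hlOSM than with mLIF (-0.23 ± 0.06 SE, adjusted p = 0.0117), a call that was lost without mLIF library 1 (0.0592), hlOSM library 1 (0.0707) or hlOSM library 2 (0.0628). Here 7.42% of all tested genes were called higher and 9.22% lower.

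Between hlOSM and mOSM, limma called 0 of the 9 genes, with 1 at an unadjusted p under 0.05, where 0.106% of all tested genes (14) were called in either direction. That gene was Tgfb2, with a log2 difference of -0.13 (95% interval -0.26 to -0.01, unadjusted p = 0.0419, adjusted p = 0.657). For Inhba the difference was -0.07 (95% interval -0.18 to 0.05), and for Tgfb3 it was -0.03 (-0.31 to 0.25), so that for Tgfb3 a difference from -19.4% to 18.9% could not be seen at this spread. The interaction, which asks whether hlOSM differed from mOSM by another amount than mLIF differed from PBS, was called for 0 of the 9 genes in limma, with 0 at an unadjusted p under 0.05, and for 0.167% of all tested genes (22). Its adjusted p lay between 0.608 and 0.985 for the 9 genes.

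Cell type markers moved with the oncostatin M conditions in which Inhba, Tgfb2 and Tgfb3 were called. The summed cardiomyocyte markers were between 33380 and 37353 with mOSM and between 34186 and 36611 with hlOSM, and 7 of the 8 genes were called lower in each. They were also lower with mLIF, at 41237 to 43056, with 6 of 8 called. Beside this and the next lists, 15.8% of all tested genes were called lower and 15.4% higher with mOSM. With hlOSM these shares were 19.8% and 18.2%, and with mLIF 4.44% and 5.47%. The smooth muscle and pericyte sum was 882 to 934 with mLIF, 660 to 714 with mOSM and 602 to 626 with hlOSM, and 5 and 6 of its 6 genes were called lower with mOSM and hlOSM. The endothelial sum was 1038 to 1091 with mLIF, 1286 to 1430 with mOSM and 1297 to 1405 with hlOSM, with 4 and 5 of 6 genes called higher with the oncostatin M forms. The fibroblast sum was 2110 to 2251 in mLIF, 2459 to 2885 in mOSM and 2307 to 2540 in hlOSM, and its 8 genes did not move together, with 2 called higher and 3 lower with mOSM, and 3 higher and 5 lower with hlOSM. The macrophage and leukocyte sum was 277 to 314 in mLIF, 337 to 381 in mOSM and 311 to 380 in hlOSM, and of its genes Cd68 was called higher with each cytokine and Lyz2 lower with hlOSM. With mLIF, 1 of 6 endothelial genes and 1 of 8 fibroblast genes were called lower, and 0 of 6 smooth muscle and pericyte genes were called. The fibroblast gene was Col1a2, whose call was lost in the alternatives given below. Fewer cells of a type and less RNA per cell cannot be told apart in such bulk libraries, and the part of these markers in the changes of Inhba, Tgfb2 and Tgfb3 was not tested.

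Among the other ligands of the family, the activin chain gene Inhbb rose most. Of 23 listed ligands 16 were in the table and 7 were tested, of which 2 rose and 3 fell with mOSM, 2 rose and 4 fell with hlOSM, and 1 rose with mLIF (medians -0.30, -0.66 and -0.05). Over all tested genes, 15.4% rose and 15.8% fell with mOSM, 18.2% and 19.8% with hlOSM, and 5.47% and 4.44% with mLIF. Inhbb, which encodes the activin chain beta B and can pair with the product of Inhba, rose with all cytokines. Its normalized counts were 45, 38 and 37 in PBS, 63, 77 and 54 in mLIF, 219, 219 and 274 in mOSM, and 252, 240 and 320 in hlOSM. The log2 fold changes were 0.67 (adjusted p = 0.00217), 2.54 (1.87e-12) and 2.72 (5.65e-13), and no library of a cytokine overlapped PBS. Inhba and Inhbb thus were called higher with mOSM and hlOSM, whereas the inhibin alpha chain Inha stayed at or under 10 in every library and was not tested. The beta chain genes Inhbc and Inhbe were not among the deposited genes. Bmp2 rose with mOSM and hlOSM (2.03 and 2.03, on the log2 scale), from low values of 13, 4 and 12 in PBS. Bmp4 (-0.76 and -0.66), Bmp6 (-0.96 and -0.90) and Gdf6 (-1.91 and -1.66) fell with both. The PBS mean was 37.3 for Bmp4 and 64.0 for Bmp6.

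Among 13 tested receptors and coreceptors, 1 rose and 2 fell with mLIF, 3 rose and 2 fell with mOSM, and 3 rose and 4 fell with hlOSM, with list medians of 0.05, 0.10 and -0.09. The shares of all tested genes that rose and fell were 5.47% and 4.44%, 15.4% and 15.8%, and 18.2% and 19.8%. The pseudoreceptor Bambi, which resembles a type I receptor without a kinase and damps signaling, had 145, 161 and 188 normalized counts in PBS, 110, 111 and 105 in mLIF, 72, 60 and 62 in mOSM, and 51, 54 and 54 in hlOSM. It fell with all 3 cytokines (log2 fold change -0.59, -1.33 and -1.61), as did the BMP coreceptor Rgma (-0.44, -0.93 and -1.27). Acvr1b, the type I receptor of activin, rose with all 3 (0.46, 0.88 and 1.02), although its call with mLIF was lost without PBS library 1 (adjusted p = 0.115) or mLIF library 2 (0.0785) or 3 (0.184). The coreceptors Tgfbr3 (0.41 and 0.38) and Eng (0.37 and 0.55) rose with mOSM and hlOSM. In the same libraries the TGF-beta receptors Tgfbr1 and Tgfbr2 did not pass the threshold.

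Of the 6 signal-transducing SMADs, 0 were called with mLIF in limma, and with mOSM and hlOSM Smad1 rose (0.75 and 0.77) and Smad9, which like SMAD1 transmits BMP signals, fell (-1.55 and -1.02). The fall of Smad9 with hlOSM was not called without PBS library 3 (-0.71, adjusted p = 0.0703) or hlOSM library 3 (-0.82, 0.0507). Smad2 and Smad3, which transmit TGF-beta and activin signals, were between 212 and 256 and between 279 and 356 normalized counts in all libraries and were not called against PBS. Besides Smad6 and Smad7, 11 genes listed as intracellular brakes were tested, although Usp15 among them rather promotes the pathway. Of the 11, 1 fell with mLIF and 3 rose and 3 fell with each oncostatin M form (medians -0.06, 0.02 and -0.02). For the SMADs and the brakes alike, 15.4% of all tested genes rose and 15.8% fell with mOSM. With hlOSM these shares were 18.2% and 19.8%, and with mLIF 5.47% and 4.44%. The corepressor Tgif1 rose (1.08 and 1.07 with mOSM and hlOSM), and so did the ubiquitin ligases Smurf1 (0.31 and 0.22) and Smurf2 (0.19 and 0.29), which work together with SMAD7. The call of Smurf1 with hlOSM was lost without PBS library 3 (adjusted p = 0.102) or hlOSM library 3 (0.121), and that of Smurf2 with mOSM without the filter (0.0501) or without PBS library 2 (0.075) or 3 (0.15) or mOSM library 1 (0.0619) or 2 (0.0864). The corepressor Skil fell with all 3 cytokines (-0.31, -0.35 and -0.45). The fall of Wwp1 with mOSM was lost with the block (0.0637), without the filter (0.0596) or with only the libraries compared (0.0511). It was also lost without PBS library 1 or 3, mLIF library 2 or any mOSM library. Its fall with hlOSM was lost without PBS library 1 (0.0523) or 3 (0.126) or hlOSM library 1 (0.132).

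Of 13 tested genes of TGF-beta latency and activation, 8 were called lower and 3 higher with mOSM, 9 lower and 2 higher with hlOSM, and 1 lower with mLIF. Over all tested genes, 15.8% were called lower and 15.4% higher with mOSM. With hlOSM these shares were 19.8% and 18.2%, and with mLIF 4.44% and 5.47%. The call with mLIF, that of Ltbp4, was lost without PBS library 3 (adjusted p = 0.0642) or mLIF library 3 (0.0582). The rise of Furin with mOSM was lost with the block (0.0551) or without the filter (0.0520). It was also lost without PBS library 1 or 2 or mOSM library 1 or 2. The list median of the log2 fold change was -0.24 with mOSM and -0.29 with hlOSM. Thbs1, a matrix protein that can activate latent TGF-beta, had 1280, 1202 and 1655 normalized counts in PBS, 1177, 1146 and 1368 in mLIF, 633, 683 and 581 in mOSM, and 612, 613 and 498 in hlOSM (log2 fold change -1.11 with mOSM and -1.25 with hlOSM). Itgb8, an integrin chain that binds latent TGF-beta, went the other way, from 26, 30 and 23 in PBS and 32, 27 and 30 with mLIF to 272, 274 and 284 with mOSM and 242, 241 and 320 with hlOSM (3.35 and 3.29). The latent TGF-beta binding protein Ltbp1 fell (-0.57 and -0.39), and the protease Bmp1 rose (0.93 and 0.87). Of 6 extracellular antagonists tested, 1 rose with mLIF, 2 rose and 1 fell with mOSM, and 1 rose and 1 fell with hlOSM. Of the rises with mOSM, that of Nog was lost without PBS library 3 (adjusted p = 0.104) or mOSM library 3 (0.0632). Dcn, the proteoglycan decorin, rose with both oncostatin M forms (1.09 and 0.98) and Fstl1 fell (-0.33 and -0.40). Fst, the activin-binding follistatin, was at 74 to 105 normalized counts in all libraries and was not called.

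**Figure D4:**
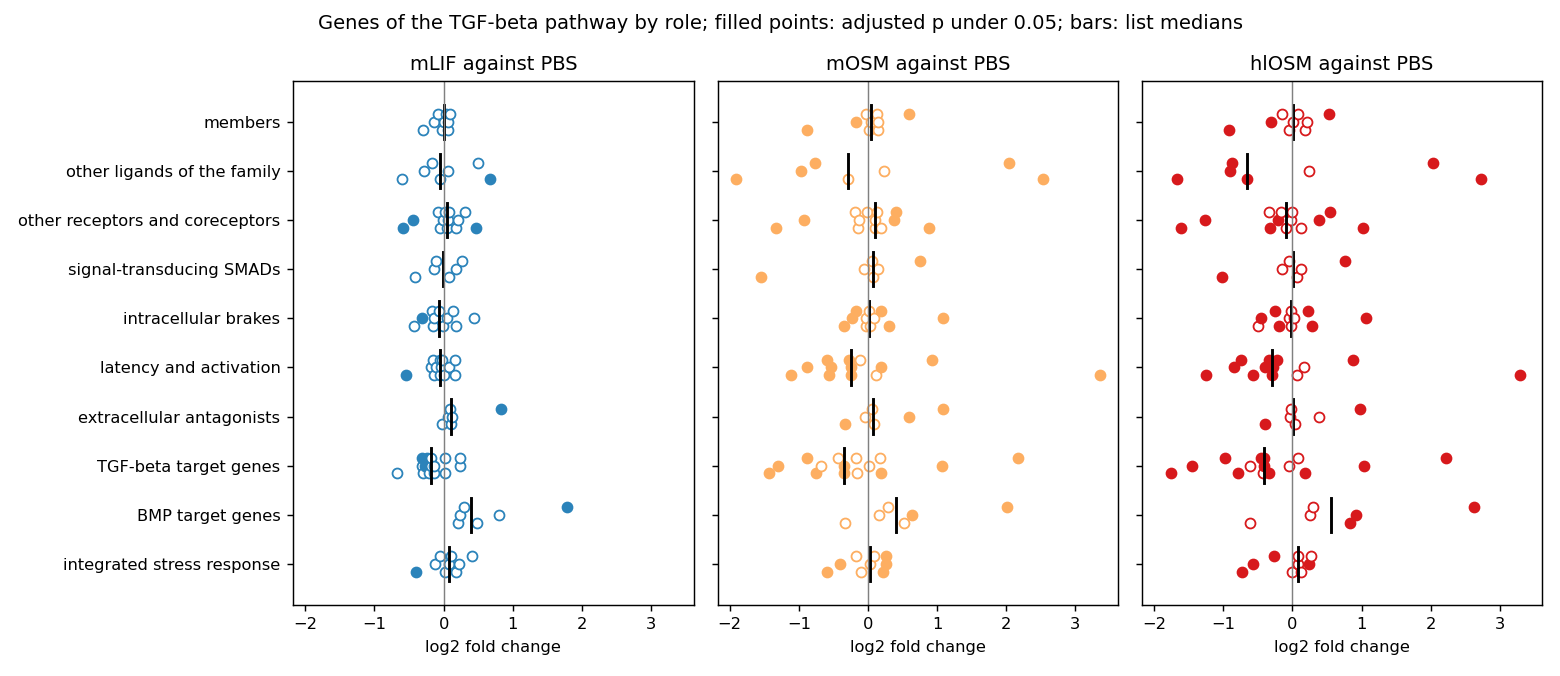
Log2 fold change against PBS of the tested genes of each pathway list and of the 9 members, for mLIF, mOSM and hlOSM. Filled points passed the adjusted p of 0.05 and black bars are list medians, which lie at -0.29 for latency and activation and -0.41 for TGF-beta targets with hlOSM.

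Of 15 textbook TGF-beta target genes, 3 fell with mLIF, 6 fell and 3 rose with mOSM, and 8 fell and 3 rose with hlOSM, with list medians of -0.18, -0.35 and -0.41. Beside this list and the next ones, 4.44% of all tested genes fell and 5.47% rose with mLIF. With mOSM these shares were 15.8% and 15.4%, and with hlOSM 19.8% and 18.2%. The falls of Col1a2 and Fn1 with mLIF were lost without PBS library 3 or any of the 3 mLIF libraries as well as with the replicate block (adjusted p = 0.0755 and 0.0558) and without the filter (0.0726 and 0.0614), and that of Col1a2 was also lost without hlOSM library 2 (0.0522), after rescaling (0.0517) and with a pseudocount of 0.1 (0.0505). Leaving out 1 library, 1 to 4 genes fell with mLIF, 5 to 7 fell and 2 to 4 rose with mOSM, and 7 to 8 fell and 2 to 4 rose with hlOSM. The contractile genes Acta2 (-1.43 and -1.45) and Tagln (-1.30 and -1.76) fell with mOSM and hlOSM, and both are also in the smooth muscle list, whose sum was lower in these conditions. Ccn2, a connective tissue growth factor, fell (-0.75 and -0.79), whereas Tgfbi (2.17 and 2.22) and Col3a1 (1.07 and 1.04) rose. Col1a1, Col1a2, Col3a1 and Postn of this list are also fibroblast markers, and Skil and Pmepa1 are also in the list of brakes. Among 6 BMP targets, 1, 2 and 3 rose and 0 fell with mLIF, mOSM and hlOSM in limma, with Id2 rising by 0.64 and 0.83 on the log2 scale with the oncostatin M forms. Gdf15 is also known as a target of the integrated stress response. Of 9 other genes of that response, 1 fell with mLIF, 3 rose and 2 fell with mOSM, and 1 rose and 3 fell with hlOSM, among them Ddit3, which encodes the stress factor CHOP and fell with all 3 (-0.40, -0.59 and -0.73), the call with mLIF being lost without PBS library 3 (-0.34, adjusted p = 0.0698). Without PBS library 3 only 1 of the 3 rises with mOSM was left, since Atf3 (adjusted p = 0.0952) and Atf5 (0.0598) were lost, and the rise with hlOSM, that of Asns, was lost with the block (0.0592) or without PBS library 1 (0.0955), hlOSM library 2 (0.0618) or hlOSM library 3 (0.0544). Trib3 fell with mOSM and hlOSM (-0.41 and -0.57), the former not being called with the block (0.0543) or without PBS library 3 (0.137) or mOSM library 1 (0.0949), and Ppp1r15a fell with hlOSM (-0.26).

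The genes most like each member across the 12 libraries were found by Pearson correlation of log2 values over 8669 well-measured genes. These correlations are descriptions, since the libraries share their conditions and their normalization. For Tgfb3 the closest gene was Ccn2 (r = 0.97, 12 libraries), followed by Ifrd1 (r = 0.97). For Inhba they were the potassium channel gene Kcnj15 (r = 0.99) and Tnc, which encodes the matrix protein tenascin C (r = 0.99), and for Tgfb2 the KIT ligand gene Kitl (r = 0.95) and Btf3l4 (r = 0.94). Ccn2 had 714, 742 and 805 normalized counts in PBS, 719, 656 and 620 in mLIF, 401, 465 and 481 in mOSM, and 458, 411 and 441 in hlOSM. The same library was highest for Ccn2 and Tgfb3 within mLIF and mOSM, but not within PBS or hlOSM. Tnc had 737, 698 and 709 in PBS, 704, 695 and 729 in mLIF, 908, 968 and 1033 in mOSM, and 929, 920 and 920 in hlOSM. Tnc and Inhba shared their highest library within PBS, mOSM and hlOSM, but not within mLIF. Such genes were picked by their correlation over these same libraries, so that agreement between libraries follows in part from the choice. For the members that were not called, the closest genes were Stk35 for Tgfb1 (r = 0.93), Aak1 for Tgfbr1 (r = 0.97), Khdrbs1 for Tgfbr2 (r = 0.85), Msra for Smad6 (r = 0.93), Heatr3 for Smad7 (r = 0.89) and Gpx1 for Gdf15 (r = 0.92). Among the members themselves, Tgfb2 and Tgfb3 went together (r = 0.84), and Inhba went against Tgfb3 (r = -0.86) and Tgfb2 (r = -0.76).

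**Figure D5:**
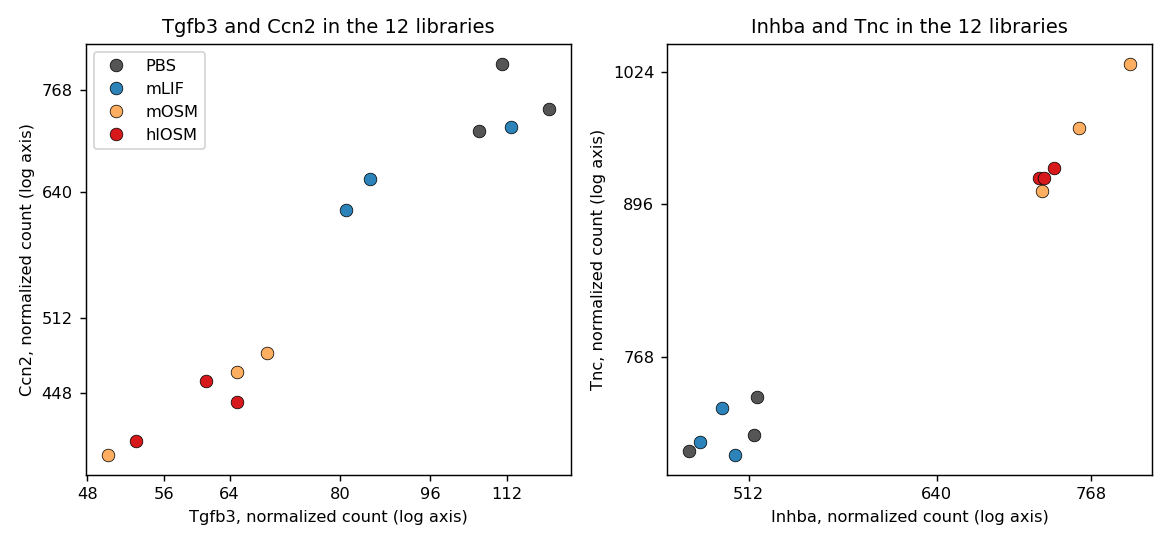
Normalized counts in the 12 libraries of Tgfb3 against Ccn2 (left) and of Inhba against Tnc (right), both axes on a log scale, with points coloured by condition. The mOSM and hlOSM libraries lie apart from the PBS and mLIF libraries in both panels, at 50 to 69 for Tgfb3 and 722 to 805 for Inhba.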

How the data were processed

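RNA of cardiomyocytes from 4 conditions was sequenced in 3 libraries each, 12 in all, and the titles of the samples gave the conditions. After trimming, the authors aligned reads to mm10 with STAR 2.7.7a, counted them per gene with featureCounts 1.6.5, and normalized the counts. The values deposited by the authors are scores on a normalized count scale, rounded to whole numbers, and neither the normalization nor the strand setting is given in the sources used here. Count models were therefore not used. limma 3.58.1 (R 4.3.3, eBayes with a mean-variance trend) was fitted to log2(value + 1) of 13184 genes with a value of at least 10 in at least 3 libraries, all 12 libraries in 1 fit, and p-values were adjusted over all these genes. Fold changes on this scale understate changes of low genes. In simulated data with 200 changed genes, the fit recovered 86.5% of changes of 1 and 50% of changes of 0.5 (log2). It made 7 and 6 false calls. Noise was drawn independently for each library, so that this check cannot show the effect of the replicate numbers described below.

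Over 6626 genes, differences between replicate numbers averaged over conditions had an SD of at most 0.0019 (log2), and no step that would remove them is named. Deviations of same-numbered libraries therefore sum to nearly 0, so that their correlations (between -0.52 and 0.02 over 18 pairs, on average -0.33) are bound to be negative and cannot show whether the numbers pair the libraries. No source says that they do, and the reported fit has no block. That fit counts residual degrees of freedom which such values do not hold, so that its p-values may be too small, and the fit with the block called fewer genes. Exon lengths came from GENCODE M21 on GRCm38, in which 22876 of 22915 identifiers were found. The members, lists and the rule for named genes were chosen with earlier results of these data known. By that rule, each list gave the 3 called genes with hlOSM (mean of at least 50) with the largest fold changes, and each member the 2 genes most like it. Other genes were named after their values were seen. Values of 1 listed gene are not reported here. Alternatives were other pseudocounts, filters and scaling (trimmed mean of M-values), a robust fit, fitting only the compared conditions, a block for the replicate number, and each library left out.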

Additional observations from a re-analysis of the deposited data

How the results depend on the processing

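Of the alternative values for the 9 genes, 1237 stayed on the same side of the threshold, 10 lost a call and 4 gained one, all of them given with Tgfb2, Tgfb3, Tgfbr1 and Smad7 above. No called value changed sign, and 50 alternatives of values that were not called had the other sign, the largest of them 0.15 in size on the log2 scale. With the replicate number as a block, limma called 2 members with mOSM, 3 with hlOSM and 0 with mLIF, and the block changed no other call of a member than that of Tgfb2 with mOSM. Over all tested genes the block gave 784 in place of 1307 calls with mLIF, 3330 in place of 4120 with mOSM, 4120 in place of 5002 with hlOSM, 2 in place of 14 between hlOSM and mOSM, and 14 in place of 22 for the interaction. Leaving out 1 library at a time, 0 members were called with mLIF (3.82% to 12.4% of all genes), 2 to 4 with mOSM (24.4% to 32.8%), 3 to 4 with hlOSM (30.8% to 40.2%), 1 to 2 for mOSM against mLIF (8.31% to 13.2%, with 1 member without mLIF library 1), 2 to 3 for hlOSM against mLIF (11.6% to 17.8%), and 0 for hlOSM against mOSM and for the interaction. The range of levels in PBS was 139-fold when the gene span replaced the exon length, by which introns enter the length. Tgfb1 then stood above Tgfb3. Over all genes there were 502 calls with mLIF without mLIF library 3, 626 without PBS library 3, 830 without mLIF library 1 and 856 without mLIF library 2. Leaving out 1 library gave 1 to 17 between hlOSM and mOSM, and 5 to 154 for the interaction (154 without hlOSM library 3 and 90 without PBS library 1). Between hlOSM and mOSM there were 6 calls without the filter, 0 with only the libraries compared and 7 after trimmed-mean rescaling, and the interaction had 11 without the filter, 12 with the robust fit and 14 after rescaling. The cause of these differences was not tested. The values do not give the reads behind them, so that no counting error could be attached to low genes such as Smad6 and Tgfb3, whose error here is the spread of 3 libraries.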
